A study of Mus musculus with 54 samples.

Results

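The genes described here are 10 markers and regulators of the epithelial-mesenchymal transition (EMT) and of myofibroblasts, namely Cdh1, Cdh2, Vim, Fn1, Acta2, Tagln, Snai1, Snai2, Zeb1 and Zeb2. They were chosen by name and matched by symbol to the Ensembl identifiers of the count files, which list 54232 genes. RNA of kidney, heart and brain of naturally aged male BL6 mice, about 20 months old, was sequenced after daily intraperitoneal injections over 14 days with Cmpd60, a benzamide inhibitor of the histone deacetylases HDAC1 and HDAC2, at 22.5 mg/kg, or with the vehicle of 2% DMSO, 49% PEG400 and 49% saline. The mice carried no transgene, and no untreated and no young mice were among these groups. Of the 54 libraries of the series, the 34 of aged tissue were used, with 6 Cmpd60 and 5 vehicle libraries of kidney, 5 Cmpd60 and 6 vehicle libraries of heart, and 6 Cmpd60 and 6 vehicle libraries of brain, and the 20 libraries of a dementia model brain were not analysed here. Libraries are named by the number in their titles. For the kidney, the titles and the treatment field of the labels give opposite groups. The titles were followed. Under the other field, each difference between Cmpd60 and vehicle kidneys takes the opposite sign, while the vehicle kidney baselines and the differences of effect between tissues rest on other libraries and take other values. The study's methods name fewer mice than the libraries used here, so that tissues of the same mice are among them, but the labels do not tie them, and comparisons between tissues treat every library as separate.

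During EMT, epithelial cells give up the contacts that E-cadherin builds between them and take on features of migratory mesenchymal cells, such as N-cadherin, vimentin filaments and a fibronectin-rich matrix. The zinc finger repressors of the Snail and Zeb families bind E-box elements in the E-cadherin gene and recruit corepressor complexes that contain HDAC1 and HDAC2. In the kidney, a partial form of this program in tubular cells and the appearance of myofibroblasts with smooth muscle actin are known features of fibrosis, while in heart and brain the same genes mark fibroblasts, vessel walls, endothelium, glia and, for N-cadherin, cardiomyocytes and neurons themselves. The question was whether the RNA of these genes differed with Cmpd60 in the kidney, and how this compared with heart and brain.

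Reads counted on genes ranged from 23584609 to 57430113 per library, with a median of 28188598 in vehicle and 38855585 in treated brains. Levels are given as CPM, the count of a gene scaled to the total of its library after adjustment of the totals by TMM normalization, on a single scale over the 34 libraries. By its unadjusted total, a count of 0 is compatible with up to 0.127 CPM in the shallowest library, a limit for counting error only. Markers of each labelled tissue were in place, since the 6 proximal tubule markers summed to between 3696 and 9474 CPM in kidney libraries and to at most 15.1 CPM elsewhere, the 6 cardiomyocyte markers to at least 64548 CPM in heart libraries and to at most 277 CPM elsewhere, and the 6 neuron markers to at least 4333 CPM in brain libraries and to at most 89.6 CPM elsewhere. Vehicle 62 and Cmpd60 68 of the heart stood apart. They held 221 and 210 CPM of Scgb1a1, the secretoglobin of airway club cells, which had no count in 8 of the other heart libraries and was at 15.2 CPM in vehicle 64. A further 6 genes of airway and lung epithelium, chosen after their values were seen, brought the sum to 1160 CPM in vehicle 62, 555 CPM in Cmpd60 68 and 55.8 CPM in vehicle 64, with at most 0.204 CPM in the others. Results for the heart are therefore also given without vehicle 62 and Cmpd60 68.

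Promoters of 4 of the 10 genes were held in the RefSeq promoter table used here, and the stretches before the start of Acta2 and Snai1 are shown because they carry elements that belong to the program. The 250 bases before the start of Acta2 (GRCm38.p6, chr19:34255374-34255623, minus strand) are written 5′ to 3′, with CArG boxes, the element bound by serum response factor, in capitals. For Snai1 (GRCm38.p6, chr2:167537945-167538194, plus strand), the capitals mark the E-box that is bound by Snail and Zeb proteins.
Acta2: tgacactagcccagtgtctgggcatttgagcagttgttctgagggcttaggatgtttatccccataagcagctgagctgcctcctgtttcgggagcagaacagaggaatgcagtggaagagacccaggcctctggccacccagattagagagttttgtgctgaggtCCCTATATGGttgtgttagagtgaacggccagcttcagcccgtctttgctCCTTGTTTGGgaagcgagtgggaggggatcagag
Snai1: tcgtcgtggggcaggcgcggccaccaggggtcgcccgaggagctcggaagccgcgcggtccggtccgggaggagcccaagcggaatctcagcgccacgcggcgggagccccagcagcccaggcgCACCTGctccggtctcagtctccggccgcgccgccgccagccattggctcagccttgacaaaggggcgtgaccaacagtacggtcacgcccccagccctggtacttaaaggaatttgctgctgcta

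The CArG search was for CCNNNNNNGG on both strands, with at most 1 of the 6 central letters other than A or T, and the Acta2 matches start 84 and 34 bases before the gene start. Such a match was present in 8.59% of the 32851 promoter windows of the same length, and 2 or more in 0.670%. The E-box search was for CACCTG on both strands, and its match in Snai1 lies 126 bases before the start, with a match in 17.2% of all windows. Neither search found a match in the windows of Vim or Zeb2, and Cdh1, Cdh2, Tagln, Fn1, Snai2 and Zeb1 had no entry. A match describes letters only and no binding was measured.

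In vehicle mice, the cadherins divided the tissues most sharply, with Cdh1 high in kidney and Cdh2 high in heart and intermediate in brain. Cdh1 (ENSMUSG00000000303), the gene of E-cadherin, was at 226, 236, 243, 222 and 256 CPM in the 5 vehicle kidneys, at 2.79 ± 0.324 CPM (SD, n = 6) in vehicle brains, and at a median of 0.300 CPM in vehicle hearts, where the lowest library had 0.127 and the highest, vehicle 62, had 8.39 CPM. Every kidney library was thus far above every heart and brain library. The kidney-heart difference was 7.27 on the log2 scale (standard error 0.58, edgeR adjusted p = 3.2e-12, quasi-likelihood test) and 9.75 without vehicle 62 and Cmpd60 68. The brain-heart difference in Cdh1 was 0.86 (standard error 0.60) and did not pass the test (edgeR adjusted p = 0.200), but without those libraries it was 3.37 (standard error 0.22, edgeR adjusted p = 5.68e-16), with adjusted p-values from 5.68e-16 to 0.444 over all alternatives.

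Cdh2, the gene of N-cadherin, which joins cardiomyocytes at the intercalated disc, was at 413 ± 35.3 CPM in heart (SD, n = 6), 96.7 ± 6.18 CPM in brain (SD, n = 6) and 12.1 ± 1.42 CPM in kidney (SD, n = 5), with no overlap between any of the tissues. Its kidney-heart difference was -5.10 on the log2 scale (standard error 0.11) and its brain-kidney difference 3.00 (standard error 0.10). Per kilobase of exon, the level of Cdh1 in kidney (51.8 CPM per kilobase) and that of Cdh2 in heart (51.2 CPM per kilobase) were nearly the same, and in kidney Cdh2 was at 1.498 CPM per kilobase. Levels of different tissues are comparable only as far as the shared TMM scale holds, and 56.6% of all genes tested passed between vehicle kidney and heart. In bulk tissue, fewer cells of a type and less RNA per cell cannot be told apart.

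Among the mesenchymal and contractile genes, the order was heart, kidney and brain for each gene. Vim, the gene of the intermediate filament vimentin, was at 370 ± 30.4 CPM in heart, 78.9 ± 12.1 CPM in kidney and 51.6 ± 6.27 CPM in brain (SD), and was the highest of the 10 genes in heart per kilobase, at 158 CPM per kilobase. Acta2, which encodes alpha-smooth muscle actin, was at 189 ± 49.1, 41.8 ± 7.23 and 12.4 ± 2.73 CPM in heart, kidney and brain (SD), and Tagln, which encodes the actin-binding protein transgelin of smooth muscle, was at 94.9 ± 29.6, 44.4 ± 6.02 and 9.72 ± 2.14 CPM (SD). These 3 genes did not overlap between any of the tissues. Fn1, the gene of the matrix protein fibronectin, varied least, with 109 ± 21.2 CPM in heart, 86.4 ± 33.0 CPM in kidney and 56.3 ± 4.77 CPM in brain (SD). Its kidney-heart difference was -0.34 (95% interval from -0.78 to 0.11) and did not pass the test, and the kidney libraries, which ran from 49.8 to 132 CPM, spanned the levels of the brain libraries.

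The transcription factors split by family. Snai1 and Snai2, which encode Snail and Slug, were low in every tissue, at 2.96 ± 1.004 and 2.99 ± 0.613 CPM in kidney (SD, n = 5), 2.85 ± 0.583 and 4.45 ± 1.26 CPM in heart (SD, n = 6), and 0.509 ± 0.190 and 0.328 ± 0.172 CPM in brain (SD, n = 6). Zeb1 and Zeb2, which encode zinc finger repressors with homeodomains, were in contrast lowest in kidney. Zeb1 was at 93.2 ± 6.68 CPM in heart, 72.0 ± 2.46 CPM in brain and 16.5 ± 2.03 CPM in kidney (SD), and Zeb2, which glia and neurons use, was at 111 ± 15.3 CPM in brain, 76.5 ± 5.36 CPM in heart and 55.8 ± 10.8 CPM in kidney (SD). Snai1 did not pass the test between kidney and heart (log2 difference 0.06, standard error 0.25). The difference in Snai2 between these tissues was -0.57 (standard error 0.23, edgeR adjusted p = 0.0344), and it no longer passed without vehicle 62 and Cmpd60 68 (-0.48, edgeR adjusted p = 0.0856), with adjusted p-values from 0.00397 to 0.105 over 18 alternatives, 12 of which called it.

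**Figure D1:**
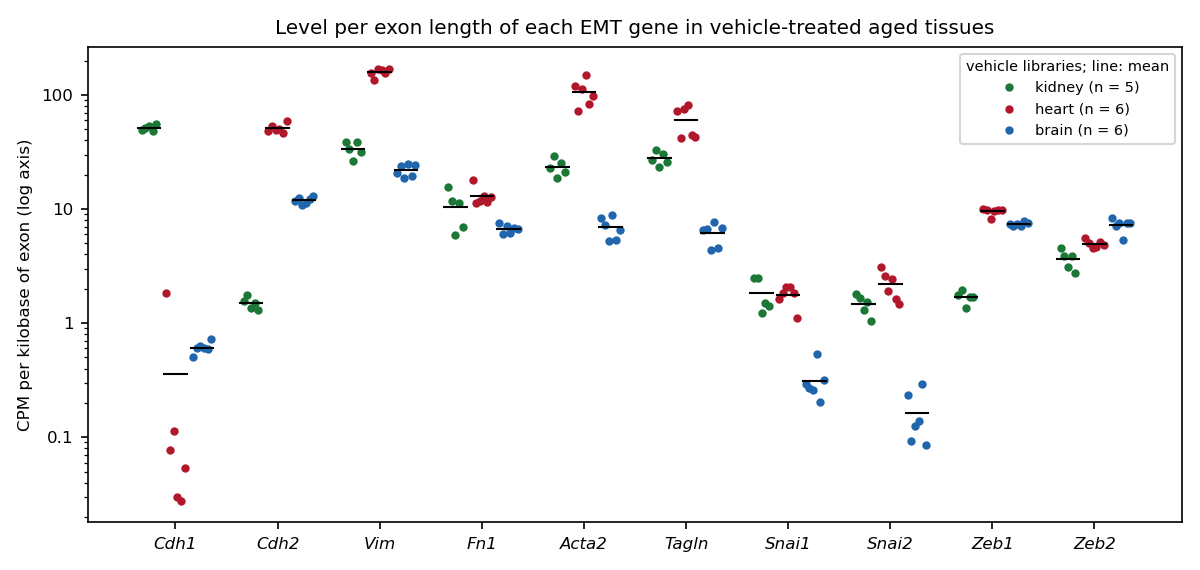
Level of each gene in CPM per kilobase of exon (log axis) in the vehicle libraries of kidney, heart and brain, with a point for each library and a line at the mean. Cdh1 is near 51.8 in kidney and below 1 in the other tissues except for heart vehicle 62, Cdh2 follows the reverse order, and Snai1 and Snai2 are the lowest in brain.

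Between vehicle kidney and heart, 8 of the 10 genes passed an adjusted p of 0.05, 1 higher and 7 lower in kidney, where 56.6% of all genes tested passed (31.1% higher and 25.6% lower). Free of overlap between these groups were 7 of the 10, all but Fn1, Snai1 and Snai2, and 41.5% of all genes. Between brain and kidney, all 10 passed, 3 higher and 7 lower in brain, against 72.4% of all genes (39.7% higher and 32.7% lower), and 9 were free of overlap, all but Fn1, against 59.6% of all genes. Between brain and heart, 9 passed, 1 higher and 8 lower in brain, against 72% of all genes (43.2% higher and 28.8% lower), and 8 were free of overlap, all but Cdh1 and Zeb2, against 55% of all genes.

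With Cmpd60, none of the 10 genes passed an adjusted p of 0.05 in edgeR's quasi-likelihood test in the kidney, where 0.309% of all genes tested did, and 2 had an unadjusted p below 0.05, where 11.2% of all genes did. These were the cadherins, with Cdh1 higher and Cdh2 lower in the treated kidneys. Cdh1 was at 299, 296, 274, 269, 264 and 288 CPM in Cmpd60 50 to 55, against 222 to 256 CPM in the vehicle kidneys listed above. All 6 treated kidneys lay above all 5 vehicle kidneys, which made Cdh1 the only gene of the 10 whose kidney groups did not overlap, and 2.31% of all genes tested were free of overlap in either direction. The means were 282 ± 14.6 and 237 ± 13.6 CPM (SD), a log2 difference of 0.25 (standard error 0.08, 95% interval from 0.07 to 0.42, edgeR adjusted p = 0.247). The two-sided exact permutation p was 0.00216, the smallest that 462 arrangements can give, unadjusted over the 30 such tests that were run. DESeq2 called Cdh1 (adjusted p = 0.0142), and over all alternatives with the groups of the titles the adjusted p ran from 0.0142 to 0.881 and the log2 difference from 0.23 to 0.28.

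Cdh2 was at 9.10, 7.32, 10.4, 10.1, 8.92 and 12.7 CPM in the treated kidneys, and at 12.6, 14.2, 10.98, 12.1 and 10.6 CPM in the vehicle kidneys. In 5 of 6 treated kidneys it lay below every vehicle kidney, and the exception was Cmpd60 55. The log2 difference was -0.31 (standard error 0.14, 95% interval from -0.60 to -0.02, edgeR adjusted p = 0.418), and the two-sided exact permutation p was 0.0368. It passed the adjusted threshold under none of 18 alternatives, with log2 differences from -0.40 (without Cmpd60 55) to -0.24.

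The mesenchymal and myofibroblast genes showed no difference of a size that these libraries resolve in the kidney. The 95% intervals of the log2 difference were -0.32 to 0.31 for Vim, -0.33 to 0.16 for Acta2, -0.34 to 0.35 for Tagln and -0.60 to 0.87 for Fn1. Acta2 was at 39.5 ± 4.87 CPM with Cmpd60 (SD, n = 6) and 41.8 ± 7.23 CPM with vehicle (SD, n = 5), and treated kidneys from 33.2 to 44.8 CPM lay within or close to the vehicle range of 33.3 to 52.1 CPM. Fn1 had the widest spread, from 58.8 to 166 CPM in treated and from 49.8 to 132 CPM in vehicle kidneys, and its log2 difference of 0.14 was -0.09 without Cmpd60 54 and 0.35 without vehicle 45. Cmpd60 54 and 55 were the treated kidneys with the most Fn1 (166 and 126 CPM) and Vim (115 and 87.2 CPM). They also had the highest sums of fibroblast markers (927 and 850 CPM, against 363 to 636 CPM in the other kidneys) and of macrophage markers (339 and 275 CPM, against 140 to 225 CPM). Their part in the spread of Fn1 and Vim was not tested.

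Of the repressors in the kidney, Snai1 (log2 difference 0.01, 95% interval from -0.56 to 0.58) and Snai2 (-0.14, 95% interval from -0.59 to 0.32) were measured on as few as 41 and 56 counts per library. Zeb1 (-0.25, standard error 0.20) and Zeb2 (-0.23, standard error 0.12) were measured with more counts, and neither passed (edgeR adjusted p = 0.676 and 0.494). Zeb1 was at 11.04, 13.4, 17.9, 16.6, 17.2 and 6.93 CPM in the treated kidneys, against 13.3 to 18.9 CPM in vehicle kidneys. The lowest value was that of Cmpd60 55, in which Havcr1 and Lcn2, genes of injured tubules, were at 552 and 280 CPM. They reached at most 176 and 135 CPM in the other treated kidneys and 122 and 38.0 CPM in vehicle kidneys. Lcn2 was at 94.0, 135, 18.4, 15.6 and 56.6 CPM in Cmpd60 50 to 54. In the heart, Lcn2 was at 7.69 to 49.0 CPM in treated and 4.12 to 6.55 CPM in vehicle libraries, where 2.43% of all genes were free of overlap. The proximal tubule markers summed to 3696 CPM in Cmpd60 55, against at least 6255 CPM in the other kidneys. Without Cmpd60 55, the difference in Zeb1 was -0.11. The part of this library's tubular state in the Zeb1 value was not tested.

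The 6 markers of the distal nephron and collecting duct, where E-cadherin is most abundant, summed to between 4501 and 7979 CPM in treated and 6706 and 8744 CPM in vehicle kidneys, and none of them passed the test (2 higher, 4 lower, median log2 difference -0.01). Of the 6 proximal tubule markers, 1 was above 0 and 5 were below, with a median of -0.27, and none passed, while 2 had an unadjusted p below 0.05. Of all genes tested in kidney, 0.309% passed, 11.2% had an unadjusted p below 0.05 and 50% were above 0. The part of these nephron markers in the Cdh1 and Cdh2 differences was not tested.

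**Figure D2:**
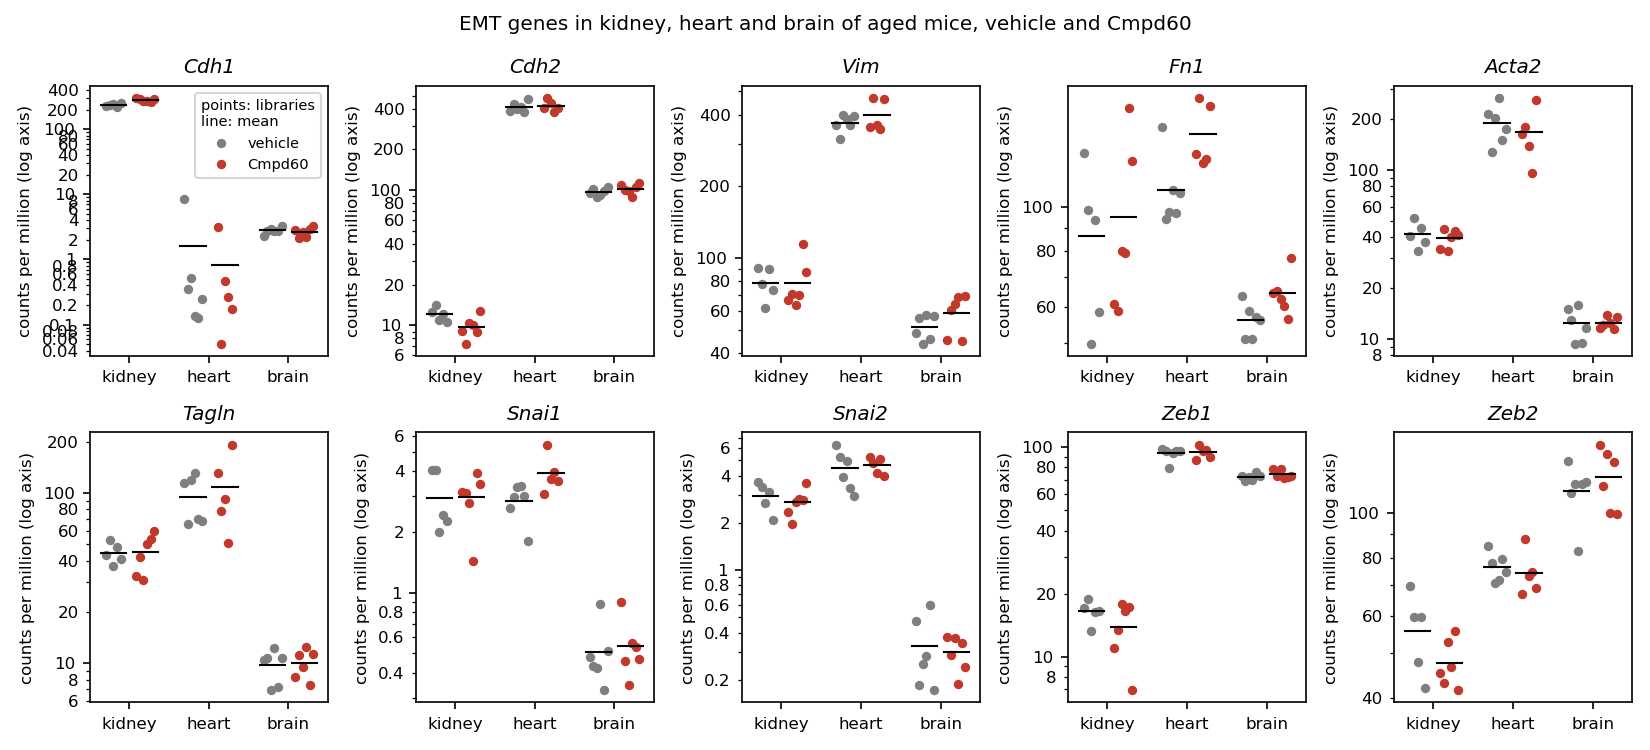
CPM (log axis) of the 10 genes in each library of kidney, heart and brain, with vehicle in grey, Cmpd60 in red and a line at the group mean. The treated kidneys lie above the vehicle kidneys for Cdh1 alone, and the heart values of Cdh1 are spread over 2 libraries of 8.39 and 3.13 CPM and 9 of at most 0.522 CPM.

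In the heart, too, none of the 10 genes passed, where 1.6% of all genes tested did, none was free of overlap between the groups, where 2.43% of all genes were, and 2 had an unadjusted p below 0.05, against 13.4% of all genes. These were Fn1 and Snai1, both higher with Cmpd60. Fn1 was at 131, 174, 125, 128 and 167 CPM in Cmpd60 68 to 72. In vehicle hearts the lowest value was 94.1, the median 102 and the highest 150.7 CPM, and that highest value was vehicle 62, while the other 5 vehicle hearts had at most 109 CPM. The treated hearts therefore lay above all vehicle hearts but vehicle 62. The log2 difference was 0.39 (standard error 0.15, edgeR adjusted p = 0.245, two-sided exact permutation p = 0.0281). Without vehicle 62 and Cmpd60 68 it was 0.55 (standard error 0.10, 95% interval from 0.34 to 0.76, edgeR adjusted p = 0.0137), so that 1 of the 10 genes passed, where 1.16% of all genes did. It also passed without vehicle 62 alone (edgeR adjusted p = 0.0129) and in DESeq2 with all hearts (adjusted p = 0.0498), and the adjusted p over all alternatives ran from 0.0129 to 0.493.

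Snai1 was at 3.10, 5.41, 3.65, 3.95 and 3.59 CPM in the treated hearts, and between 1.80 and 3.36 CPM, with a median of 2.98 CPM, in vehicle hearts. In 4 of 5 treated hearts it lay above every vehicle heart, and Cmpd60 68 was the exception. The log2 difference was 0.45 (standard error 0.21, 95% interval from 0.01 to 0.89, edgeR adjusted p = 0.356), on 54 to 106 counts per library, with a two-sided exact permutation p of 0.0173. Without vehicle 62 and Cmpd60 68 it was 0.51 (edgeR adjusted p = 0.310).

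The hearts with the most Cdh1 were also those with the most airway transcripts. It was at 8.39 CPM in vehicle 62 and 3.13 CPM in Cmpd60 68, at 0.522 CPM in vehicle 64, and between 0.0510 and 0.470 CPM in the other 8 hearts, on as little as 1 count. Its log2 difference of -0.97 had a standard error of 1.39, turned to 1.60 without vehicle 62 and was -0.18 (95% interval from -1.76 to 1.40) without vehicle 62 and Cmpd60 68. Mesothelial markers, of the epithelium that covers the heart, summed to 49.7 CPM in vehicle 62 and 20.7 CPM in Cmpd60 68, but also to 27.6 CPM in Cmpd60 70 and 26.04 CPM in vehicle 64, where Cdh1 was at 0.470 and 0.522 CPM. The part of airway or mesothelial RNA in the Cdh1 levels was not tested.

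**Figure D3:**
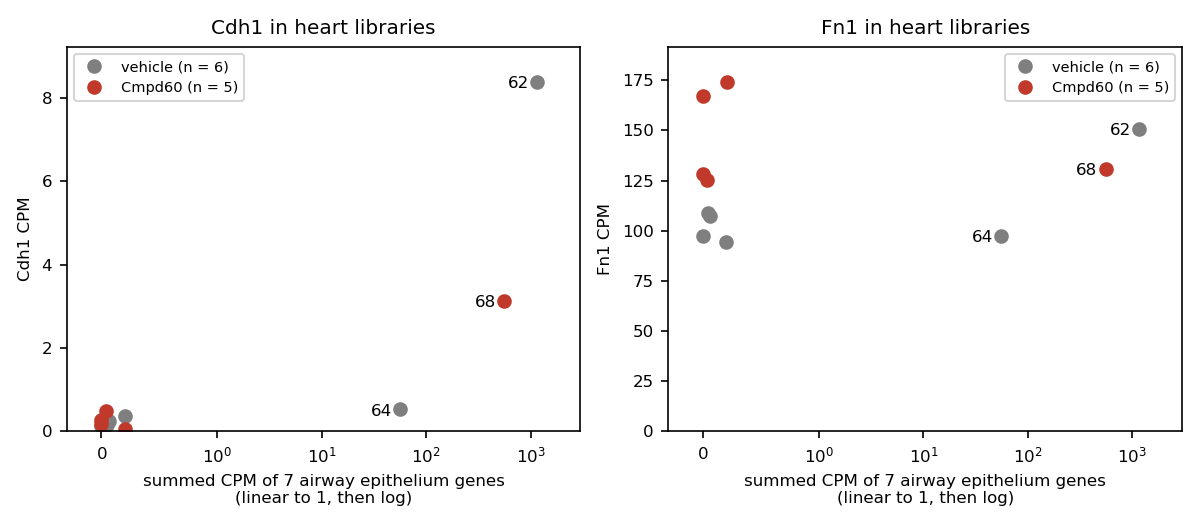
Cdh1 and Fn1 CPM of each heart library against the summed CPM of 7 airway and lung epithelium genes (linear to 1, then log). Vehicle 62 and Cmpd60 68 have the highest airway sums and the highest Cdh1, and vehicle 62 is the only vehicle heart with Fn1 within the treated range.

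The other genes of the heart were close to 0 or widely spread. Cdh2 (log2 difference 0.01, standard error 0.07), Zeb1 (-0.0012, standard error 0.07) and Zeb2 (-0.06, standard error 0.08) had the narrowest intervals, and for Cdh2 the interval of -0.13 to 0.15 bounds the difference at these levels. Vim was 0.10 (standard error 0.09) and Snai2 0.06 (standard error 0.20). Acta2 ranged from 96.4 to 259 CPM in treated and 129 to 266 CPM in vehicle hearts, and Tagln from 50.7 to 192 and from 66.1 to 131 CPM, so that their log2 differences of -0.18 (standard error 0.27) and 0.19 (standard error 0.36) were smaller than their standard errors. Of the treated hearts, Cmpd60 72 was the highest and Cmpd60 71 the lowest in both smooth muscle genes. Without Cmpd60 72 the difference was -0.40 in Acta2 and -0.12 in Tagln, and without Cmpd60 71 it was -0.04 and 0.37.

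In the brain, none of the 10 genes passed either, where 0.0491% of all genes tested did, none was free of overlap, where 1.07% of all genes were, and only Fn1 had an unadjusted p below 0.05, against 13.4% of all genes. Fn1 had a lowest value of 56.5, a median of 63.6 and a highest value of 77.3 CPM in treated brains, and 51.0, 56.6 and 63.5 CPM in vehicle brains. In 3 of 6 treated brains it lay above every vehicle brain. The log2 difference was 0.17 (standard error 0.07, 95% interval from 0.03 to 0.30, edgeR adjusted p = 0.287, two-sided exact permutation p = 0.0303), and it passed under none of the 19 alternatives. Endothelial markers moved beside it, with 6 of 6 above 0, none past the adjusted threshold and a sum of 109 to 195 CPM in treated and 98.3 to 109 CPM in vehicle brains. So did pericyte markers, with 5 of 6 above 0, none past the adjusted threshold, and a sum of 159 to 182 CPM in treated and 144.9 to 160 CPM in vehicle brains. Of all genes tested in brain, 51.8% were above 0. Of the fibroblast markers, 1 of 6 was above 0, and their sum was 81.8 to 95.1 CPM in treated and 84.3 to 102 CPM in vehicle brains. Neuron markers summed to 4772 to 5926 CPM in treated and 4333 to 5045 CPM in vehicle brains, and astrocyte markers to 2865 to 3418 and 2629 to 2942 CPM. Macrophage markers summed to 138 to 162 and 137 to 162 CPM, and choroid plexus markers to 181 to 774 and 440 to 623 CPM. The part of these cell types in the Fn1 difference was not tested. Vim was at 58.9 ± 11.1 CPM with Cmpd60 and 51.6 ± 6.27 CPM with vehicle (SD, n = 6 each), and 4 of 6 treated brains lay above every vehicle brain while the other 2 were near the lowest (log2 difference 0.16, standard error 0.12). For the well counted genes the intervals were narrow, from -0.06 to 0.17 for Cdh2, -0.08 to 0.11 for Zeb1 and -0.17 to 0.31 for Zeb2. Cdh1, at 2.68 ± 0.434 CPM in treated and 2.79 ± 0.324 CPM in vehicle brains (SD), had a log2 difference of -0.08 (standard error 0.13).

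**Figure D4:**
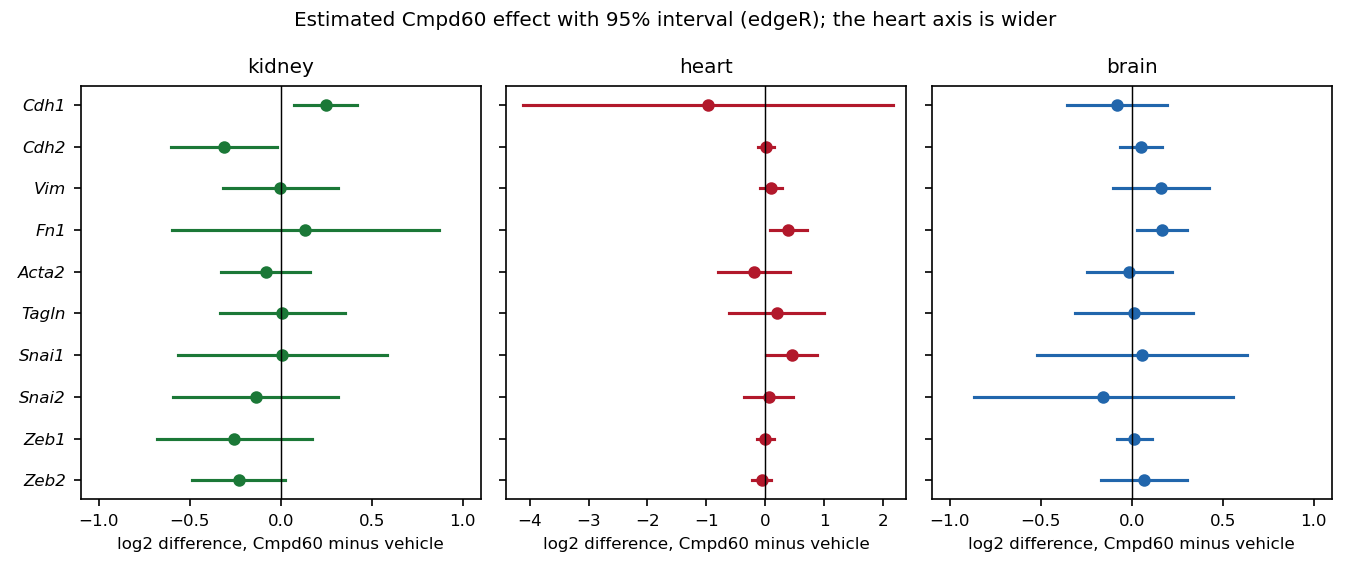
Log2 difference between Cmpd60 and vehicle for each gene with its 95% interval (edgeR), in kidney, heart and brain, with a wider axis for the heart. Intervals that leave out 0 are those of Cdh1 and Cdh2 in kidney, Fn1 and Snai1 in heart, and Fn1 in brain, and none of these passed the adjustment over all genes.

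The Cmpd60 effect was then compared between tissues in a fit of all 34 libraries. None of the 10 genes passed for kidney against heart, kidney against brain or brain against heart, where 0.347%, 0.0922% and 0.0627% of all genes tested did. Unadjusted p-values below 0.05 numbered 1 for kidney against heart, 2 for kidney against brain and 0 for brain against heart, where 11.7%, 9.94% and 8.96% of all genes had them. The gene with the smallest was Cdh2, whose effect was lower in kidney than in brain by -0.39 on the log2 scale (standard error 0.13, edgeR adjusted p = 0.276) and lower than in heart by -0.33 (standard error 0.13, edgeR adjusted p = 0.307). For Zeb2 the difference between kidney and brain was -0.32 (standard error 0.15, edgeR adjusted p = 0.487). With the kidney groups of the treatment field, 1 gene of the 10 had an unadjusted p below 0.05 for kidney against heart and 0 for kidney against brain, and the differences in Cdh2 were 0.28 against heart (standard error 0.13, edgeR adjusted p = 0.266) and 0.23 against brain (standard error 0.13, edgeR adjusted p = 0.491), so that both of these signs rest on the titles. For Cdh1, the interval of the kidney-heart difference was -0.78 to 2.83, and -0.51 to 1.16 without heart vehicle 62 and Cmpd60 68, so that a difference of the size seen in the kidney could not be resolved. For kidney against brain the difference in Cdh1 was 0.30 (standard error 0.66, 95% interval from -1.06 to 1.65), and it passed under none of 28 alternatives. The fit of all 34 libraries gives each gene a single spread, to which the hearts contribute. In the separate fits, the standard errors of Cdh1 were 0.08 in kidney and 0.13 in brain. That Cdh1 did not pass therefore does not show that its effects in kidney and brain were alike. Over the 10 genes, the median difference between Cmpd60 and vehicle was -0.04 in kidney, 0.03 in heart and 0.03 in brain, with 4, 6 and 7 of 10 genes above 0, where 50%, 49.6% and 51.8% of all genes tested were above 0.

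Other genes of the pathway were taken from 5 lists. Of the 22 genes of epithelial junctions and epithelial identity tested in the kidney, 1 passed and was higher, 16 were above 0 and 7 had an unadjusted p below 0.05, where 0.309%, 50% and 11.2% of all genes tested did so, with a median log2 difference of 0.14 beside -8.01e-05 over all genes tested. The gene that passed was Tjp3, which encodes the tight junction scaffold ZO-3. Its mean was 26.1 ± 1.92 CPM with Cmpd60 (SD, n = 6) and 19.0 ± 0.976 CPM with vehicle (SD, n = 5), all 6 treated kidneys lay above all 5 vehicle kidneys, and its log2 difference was 0.46 (standard error 0.08, edgeR adjusted p = 0.0260) and 0.47 without Cmpd60 55. Of all genes tested in kidney, 2.31% were free of overlap. In the heart, 2 of 19 tested genes of this list passed, where 1.6% of all genes did. F11r, the gene of the junctional adhesion molecule A, was at 71.8 ± 4.10 CPM with Cmpd60 (SD, n = 5) and 53.1 ± 3.44 CPM with vehicle (SD, n = 6), with all 5 treated hearts above every vehicle heart (log2 difference 0.42, standard error 0.07, edgeR adjusted p = 0.00552). Of all genes tested in heart, 2.43% were free of overlap. Grhl2, an activator of epithelial genes, was at 2.48 ± 0.640 and 4.91 ± 1.75 CPM (SD), a log2 difference of -1.002 (standard error 0.25, edgeR adjusted p = 0.0401). Without vehicle 62 and Cmpd60 68, the difference in F11r was 0.40 and passed (edgeR adjusted p = 0.0170), and that in Grhl2 was -0.91 (standard error 0.26) and did not pass (edgeR adjusted p = 0.0901), where 1.16% of all genes passed. In the brain, none of 19 passed, where 0.0491% of all genes did. Ctnna1, which links cadherins to actin, had the smallest p there (log2 difference 0.10, edgeR adjusted p = 0.390).

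Among the 15 tested genes of the mesenchymal and matrix list, none passed in kidney or brain, where 0.309% and 0.0491% of all genes did, and 2 did in the heart, both higher with Cmpd60, where 1.6% of all genes passed. Timp1, an inhibitor of matrix metalloproteinases, was at 7.47 ± 2.55 CPM in treated and 4.10 ± 0.957 CPM in vehicle hearts (SD), a log2 difference of 0.84 (standard error 0.21, edgeR adjusted p = 0.0392). Mmp2, a gelatinase, was at 95.1 ± 13.1 and 73.4 ± 9.13 CPM (SD), a log2 difference of 0.36 (standard error 0.09, edgeR adjusted p = 0.0430). The median log2 difference of this list in the heart was 0.24, beside -0.0014 over all genes tested, with 13 of 15 genes above 0, where 49.6% of all genes were. Without vehicle 62 and Cmpd60 68, 3 genes of the list passed, Timp1, Lox and Itga5, the last being the alpha subunit of a fibronectin receptor, where 1.16% of all genes did. The difference in Mmp2 was then 0.39 (standard error 0.10) and did not pass (edgeR adjusted p = 0.0615). Endothelial and macrophage markers moved beside these genes in the heart, with 6 of 6 above 0 in each list and none past the adjusted threshold. The endothelial markers summed to 1278 to 1788 CPM in treated and 1228 to 1325 CPM in vehicle hearts and the macrophage markers to 271 to 331 and 201 to 324 CPM, while the fibroblast markers summed to 1377 to 1522 and 1250 to 1612 CPM. Their part in the matrix genes and in Fn1 was not tested. In the kidney, 10 genes of the list were above 0 and 5 below, with a median of 0.13 and 1 unadjusted p below 0.05. Of all genes tested there, 50% were above 0 and 11.2% had an unadjusted p below 0.05. The summed level of the list, most of it that of Spp1, the gene of osteopontin, ran from 1700 to 16227 CPM in treated and from 1463 to 4135 CPM in vehicle kidneys, and overlapped. The gene with the smallest p was Ccn2, a matricellular protein induced by TGF-beta (log2 difference -0.22, edgeR adjusted p = 0.397), and in the brain it was Tnc, the gene of tenascin C (-0.51, edgeR adjusted p = 0.127).

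Of the 12 other EMT regulators, none passed in kidney or brain, where 0.309% and 0.0491% of all genes tested did. In the heart, only Tgfb1 passed, where 1.6% of all genes did. Tgfb1, the gene of the main inducer of EMT and fibrosis, was at 35.9 ± 2.71 CPM with Cmpd60 (SD, n = 5) and 27.9 ± 2.41 CPM with vehicle (SD, n = 6). All 5 treated hearts lay above every vehicle heart, and 2.43% of all genes were free of overlap. The log2 difference of Tgfb1 was 0.35 (standard error 0.08, edgeR adjusted p = 0.0367). Without vehicle 62 and Cmpd60 68 it was 0.33 and no longer passed (edgeR adjusted p = 0.0827), while Tgfb2 did (0.48, edgeR adjusted p = 0.0218), where 1.16% of all genes passed. The smallest p in the kidney was that of the forkhead factor Foxq1 (0.47, edgeR adjusted p = 0.272) and in the brain that of Tcf4, a basic helix-loop-helix factor (0.13, edgeR adjusted p = 0.290). None of the 12 smooth muscle contractile genes passed in any tissue, where 0.309%, 1.6% and 0.0491% of all genes did in kidney, heart and brain. The smallest p was that of Tpm2, a tropomyosin, in kidney (0.54, edgeR adjusted p = 0.239) and of Synpo2, an actin-binding protein, in heart (-0.15, edgeR adjusted p = 0.289) and brain (-0.55, edgeR adjusted p = 0.224). Among the 10 HDAC1/2 corepressor partners, which include the targeted deacetylases, none passed in any tissue, against the same shares of all genes. Ctbp2, a corepressor that Zeb proteins bind, was nearest in the kidney, with 40.1 ± 2.81 CPM in treated and 31.6 ± 1.28 CPM in vehicle kidneys (SD) and no overlap (0.34, standard error 0.08, edgeR adjusted p = 0.0813). Of all genes tested in kidney, 2.31% were free of overlap. Mta1 was nearest in the heart (0.20, edgeR adjusted p = 0.171) and Sin3a in the brain (-0.16, edgeR adjusted p = 0.188).

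**Figure D5:**
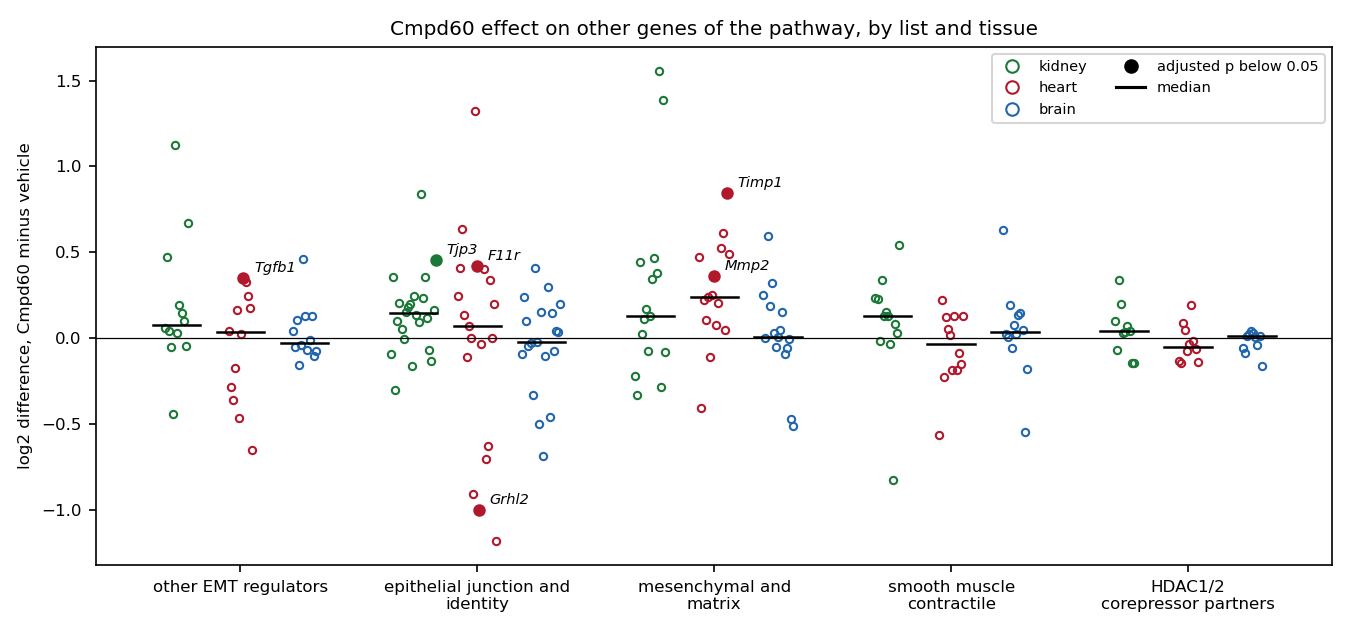
Log2 difference between Cmpd60 and vehicle for every tested gene of the 5 lists, by tissue, with filled points for an adjusted p below 0.05 (edgeR) and a line at the median of each list. The filled points are Tjp3 in kidney and Tgfb1, F11r, Grhl2, Timp1 and Mmp2 in heart, and none is in brain.

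The genes whose levels followed those of Cdh1 or Acta2 most closely from library to library were taken from all genes with a mean of at least 1 CPM, after subtracting the mean of each treatment group. In the 11 kidneys, the nearest to Cdh1 among 13648 genes were the clock gene Per2 (Pearson r = 0.960), Txn2 (r = 0.956) and Arf1 (r = 0.952). For Acta2, the nearest were Rgs5, a marker of pericytes, Dnhd1 and 2310045N01Rik in kidney (r = 0.932, 0.915 and 0.900). In the 11 hearts they were Actn1, an actin cross-linker, Sod3 and Igfbp7 (r = 0.961, 0.945 and 0.945), and in the 12 brains Col1a2, a chain of type I collagen, Adipor1 and Tomm22 (r = 0.924, 0.918 and 0.916). Tagln ranked at place 17 in kidney (r = 0.774), place 11 in heart (r = 0.890) and place 134 in brain (r = 0.762). These correlations describe the highest of many, over libraries that share normalization, and carry no test.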

How the data were processed

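The authors enriched polyadenylated RNA on oligo-dT beads, made directional libraries from it, trimmed reads with Trimmomatic 0.32, aligned them with HISAT2 2.1.0 and counted them on Ensembl genes with HTSeq 0.11.0, and deposited raw counts per gene and library, not normalized. The genome build is not given in the sources used here. Groups follow the sample titles. The 5 summary lines of each library, which held 16.6% to 22.1% of its reads, were left out.

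Counts were normalized by TMM and compared by edgeR 4.0.16 (quasi-likelihood F-test, R 4.3.3), with Benjamini-Hochberg adjustment over every gene that had over 2 counts in 3 or more of the fitted libraries. Each tissue was fitted on its own for the Cmpd60 effect, which left 20698 genes in kidney, 19452 in heart and 24438 in brain, and all 34 libraries were fitted together for baseline levels and for differences of the effect (27105 genes). The study's methods name fewer mice than libraries, so that tissues share mice, but the labels do not tie them, and the joint fit treats every library as separate. P-values set a difference against the spread between libraries, which in the joint fit do not all come from different mice. No 2 libraries of a group agreed within sampling noise (their counts differed by at least 2.82 times the variance of counting). On simulated counts, 200 genes of at least 1 CPM were changed by 1 on the log2 scale. In kidney, 161 of them were recovered among 20129 genes, with 5 false calls. In heart 181 were recovered with 15 false calls, and in brain 193 with 18. For the difference of effect between kidney and heart, 137 were recovered with 5 false calls. There, each gene was simulated with the same level in every tissue, so that this recovery does not describe genes whose levels differ between tissues, such as the cadherins. Smaller changes, such as those of the kidney cadherins, were not simulated. Exon lengths were taken from GENCODE vM1 on NCBIM37, which need not be the authors' annotation.

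The 10 genes and all lists were chosen with earlier results of these data known. Every one of the 10 is named, and from each pathway list the genes past the adjusted threshold (at most 4), or else that with the smallest p, in each tissue. For Cdh1 in kidney and Acta2 in each tissue the 3 nearest genes are named. Lox, Itga5 and Tgfb2 fall outside this rule and were named after their values were seen, as were Havcr1, Lcn2 and the airway genes. Alternatives were DESeq2 1.42.0, limma-voom (limma 3.58.1), DESeq2 size factors, no filter, at least 10 counts, thinned counts, other sets of libraries in the fit and each library left out in turn. Leaving out heart vehicle 62 and Cmpd60 68 together and exchanging the kidney groups as the treatment field of the labels gives them were chosen after seeing the data.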

Additional observations from a re-analysis of the deposited data

Results flagged for a closer look

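Of 60 groups of libraries (10 genes in 6 groups), 5 held a library far from the rest by Dixon's test at its 95% critical value, where chance flags about 5% of groups. In the heart, Cdh1 was at 8.39 CPM in vehicle 62, with the other vehicle hearts between 0.127 and 0.522 CPM, and at 3.13 CPM in Cmpd60 68, with the other treated hearts between 0.0510 and 0.470 CPM. Fn1 was at 150.7 CPM in vehicle 62, with the other vehicle hearts between 94.1 and 109 CPM. These libraries are the ones with the most airway transcripts, and their part in the Fn1 value was not tested. Zeb1 was at 79.8 CPM in heart vehicle 64, with the others between 94.1 and 97.8 CPM. Snai1 was at 0.875 CPM in brain vehicle 30, with the others between 0.329 and 0.516 CPM. No difference of the Cmpd60 effect between tissues passed for any of the 10 genes.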

How the results depend on the processing

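No paired analysis was possible because the groups share no replicate numbers. With the titles' groups, of 90 differences (10 genes in 9 comparisons), 29 changed sign under at least 1 alternative, and none of these had passed the test. Signs reversed in Vim in kidney with DESeq2 (0.00346), size factors (0.00359), at least 10 counts (0.00261), thinned counts (0.010) and all libraries (0.00112), in Zeb1 in heart with no filter (0.00101), thinned counts (0.00576), all libraries (0.015) and without vehicle 62 and Cmpd60 68 (0.048), in Zeb2 in heart without those libraries (0.012), in Tagln in kidney with limma-voom (-0.021), in Acta2 in brain with limma-voom (0.014) and all libraries (0.015), in Snai1 in brain with thinned counts (-0.014) and between vehicle kidney and heart with DESeq2 (-0.00358) and size factors (-0.00612), and in the effect of Snai2 in kidney against brain with DESeq2 (0.00190) and of Zeb1 in brain against heart with only those tissues (-0.027) or without the pair of heart libraries (-0.014). DESeq2 gave no adjusted p in 8 of the 90, 7 of them for Cdh1.

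With each library left out in turn, signs reversed within these ranges. In kidney they were -0.13 to 0.064 for Vim, -0.15 to 0.0090 for Acta2, -0.085 to 0.094 for Tagln, -0.090 to 0.35 for Fn1 and -0.10 to 0.16 for Snai1. In heart they were -2.74 to 1.60 for Cdh1, -0.038 to 0.050 for Cdh2, -0.12 to 0.37 for Tagln, -0.050 to 0.19 for Snai2 and -0.043 to 0.026 for Zeb1. In brain they were -0.080 to 0.074 for Acta2, -0.067 to 0.092 for Tagln, -0.14 to 0.29 for Snai1, -0.29 to 0.10 for Snai2, -0.0015 to 0.031 for Zeb1 and -0.0051 to 0.12 for Zeb2. Between vehicle kidney and heart, Snai1 ran from -0.081 to 0.17. For the effect in kidney against heart they were -1.49 to 2.84 for Cdh1, -0.051 to 0.30 for Acta2 and -0.37 to 0.12 for Tagln, in kidney against brain -0.13 to 0.057 for Tagln, -0.29 to 0.15 for Fn1, -0.31 to 0.12 for Snai1 and -0.26 to 0.12 for Snai2, and in brain against heart -1.79 to 2.55 for Cdh1, -0.34 to 0.14 for Tagln and -0.33 to 0.055 for Snai2.

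The number of the 10 genes that passed for Cmpd60 was 0 in each tissue, 1 in kidney and 1 in heart with DESeq2, 0 to 1 in heart with a library left out, and 1 in heart without vehicle 62 and Cmpd60 68. Of all genes tested, 0.309% passed in kidney (64 genes), 1.6% in heart (312) and 0.0491% in brain (12). DESeq2 called 2.07% (429), 3.84% (746) and 1.76% (429). In brain, limma-voom called 0.00818% (2), no filter 0.39% (133), at least 10 counts 0.0203% (4) and the edgeR fit of all libraries 0% (0, with 1406 at an unadjusted p below 0.05), and that fit called 2.01% (546) in kidney. With a library left out, the share ran from 0.0829% (without vehicle 47) to 0.706% (without Cmpd60 52) in kidney, from 0.473% (without Cmpd60 72) to 1.81% (without Cmpd60 71) in heart and from 0.00411% (without vehicle 27) to 1.62% (without vehicle 29) in brain. For the effect in kidney against heart, 0.347% passed, and 1.9% with DESeq2, 0.221% with limma-voom, 0.0616% with only these tissues and 0.218% (without kidney vehicle 47) to 0.698% (without kidney Cmpd60 52) with a library left out. For kidney against brain, 0.0922% passed, and 0.992% with DESeq2, 0.214% with limma-voom and 0.0555% (without kidney vehicle 49) to 0.403% (without kidney Cmpd60 52) with a library left out. For brain against heart, 0.0627% passed, and 0.69% with DESeq2, 0.594% with only these tissues and 0.0037% (without heart Cmpd60 72) to 0.137% (without heart Cmpd60 71) with a library left out. The cause was not tested.

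With the kidney groups of the treatment field, the differences between Cmpd60 and vehicle kidneys were -0.25 for Cdh1, 0.31 for Cdh2, 0.0019 for Vim, 0.083 for Acta2, -0.0086 for Tagln, -0.14 for Fn1, -0.0087 for Snai1, 0.14 for Snai2, 0.25 for Zeb1 and 0.23 for Zeb2. Signs also reversed in the effect in kidney against heart for Cdh2 (0.28), Snai2 (0.062), Zeb1 (0.24) and Zeb2 (0.27), and in kidney against brain for Cdh1 (-0.20), Cdh2 (0.23), Acta2 (0.065), Snai2 (0.26), Zeb1 (0.21) and Zeb2 (0.13). None of the 10 genes passed in these comparisons, and 2.85% (772 genes) and 0.793% (215) of all genes did for kidney against heart and kidney against brain. Between vehicle tissues, 8 of the 10 genes passed for kidney against heart and all 10 for brain against kidney, with no sign reversed.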
